A study of Rattus norvegicus with 6 samples.

Results

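The 20S and 26S proteasome genes, with the factors that assemble, cap and inhibit the particle, were examined in bone marrow mesenchymal stem cells (BMSCs) that overexpressed FNDC5. The set comprised the genes whose symbol begins with Psma, Psmb, Psmc, Psmd, Psme, Psmf or Psmg followed by a number, and Pomp. It held 50 of the 33508 genes in the count table, of which 47 of 12104 were expressed highly enough to be tested. Psmc3ip, whose symbol matches but whose product is a meiotic recombination factor and not a proteasome protein, was kept apart, which left 49 proteasome genes and 46 that were tested. RNA was sequenced from BMSCs-OE-FNDC5 (3 libraries) and BMSCs-OE-NC (3 libraries). The cells had been flushed from the long bones of male Sprague–Dawley rats, 2 months old, and passaged 3 times. BMSCs-OE-FNDC5 carried a lentivirus with rat Fndc5 and BMSCs-OE-NC a blank lentivirus, so both groups had been transduced. Both had also spent 24 h in hypoxia and serum deprivation (H/SD), at 1% O2 in medium without glucose or serum, and no library came from cells outside H/SD. The comparison asks what FNDC5 overexpression changes in cells under H/SD.

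The proteasome degrades proteins that have been tagged with ubiquitin. Its 20S core is a stack of alpha rings, which gate the entrance, and beta rings, which hold the catalytic sites, and its 19S particle recognises, unfolds and deubiquitinates substrates through a base with ATPases and a lid. Under interferon, inducible relatives replace the catalytic beta subunits to form the immunoproteasome, which favours peptides for antigen presentation, and dedicated chaperones build the rings in order. The genes encoding the subunits are usually transcribed together.

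A library held 17430287 to 17965722 counts (BMSCs-OE-NC) or 16640635 to 17229490 counts (BMSCs-OE-FNDC5). Values are CPM, the count scaled to a common library size, after scaling with the trimmed mean of M values (TMM), given as mean ± SD of 3 libraries, and a positive log2 fold change is a higher level in BMSCs-OE-FNDC5. A gene rose or fell when its adjusted p was under 0.05 in the quasi-likelihood test of edgeR, adjusted over all 12104 genes tested. The labels call the libraries biological replicates without saying whether they came from separate rats, cultures or transductions, so the p-values describe only the spread between these libraries. Fndc5 stood at 1.06 ± 0.208 CPM in BMSCs-OE-NC and at 4334 ± 79.1 CPM in BMSCs-OE-FNDC5 (SD, n = 3 each). All 8 stromal markers examined were detected. In BMSCs-OE-FNDC5, 3 were higher (Thy1, Cd44 and Eng) and 5 were lower (Col1a1, Itgb1, Nt5e, Pdgfrb and Vcam1) with TMM scaling. When the trend of counts with gene length was removed, Col1a1 was higher (log2 fold change 0.29, adjusted p = 1.68e-07 from edgeR). The other markers kept their direction. Over all genes tested, 36.9% rose and 38.8% fell. In bulk RNA a change in the share of a cell type and a change in RNA per cell cannot be told apart.

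Of the 46 proteasome genes tested, 38 rose and 6 fell in BMSCs-OE-FNDC5, whereas 36.9% of all genes tested rose and 38.8% fell. The genes that fell were Psma4, Psmc6, Psmd1, Psmd14, Psme3 and Psme4, and Psma1 and Psmd10 did not pass the test. The split was 25 up and 12 down under scaling by library size only, which lowered the median of all genes by 0.37 on the log2 scale. It was 27 up and 12 down when the trend of counts with gene length was removed. The median log2 fold change was 0.54 over the proteasome genes and -0.04 over all genes tested. With an absolute log2 fold change over 1 as a further threshold, 9 proteasome genes rose (Psmb1, Psmb3, Psmb4, Psmb5, Psmb6, Psmb7, Psmb8, Psmb9 and Psmd8) and Psme4 fell, against 9.84% and 17.5% of all genes tested. These counts were 2 up and 4 down with library size scaling, and 1 up and 0 down with the length trend removed. The libraries of the 2 groups did not overlap for 44 of the 46 genes, as for 78.3% of all genes tested, and Psma1 and Pomp were the exceptions. The classes differed in their median log2 fold change, which was 1.19 for the constitutive beta ring, 1.18 for the inducible beta subunits, 0.69 for the core assembly chaperones, 0.54 for the ATPases, 0.39 for the other base subunits, 0.32 for the lid, 0.30 for the base chaperones, 0.23 for the alpha ring and 0.09 for the activators and inhibitor. With the length trend removed the order changed, since the medians were 0.88 for the inducible and 0.76 for the constitutive beta subunits, 0.49 for the other base subunits, 0.27 for the base chaperones, 0.21 for the ATPases, 0.15 for the lid and 0.08 for the core chaperones, and were negative for the activators and inhibitor (-0.04) and the alpha ring (-0.26).

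**Figure D1:**
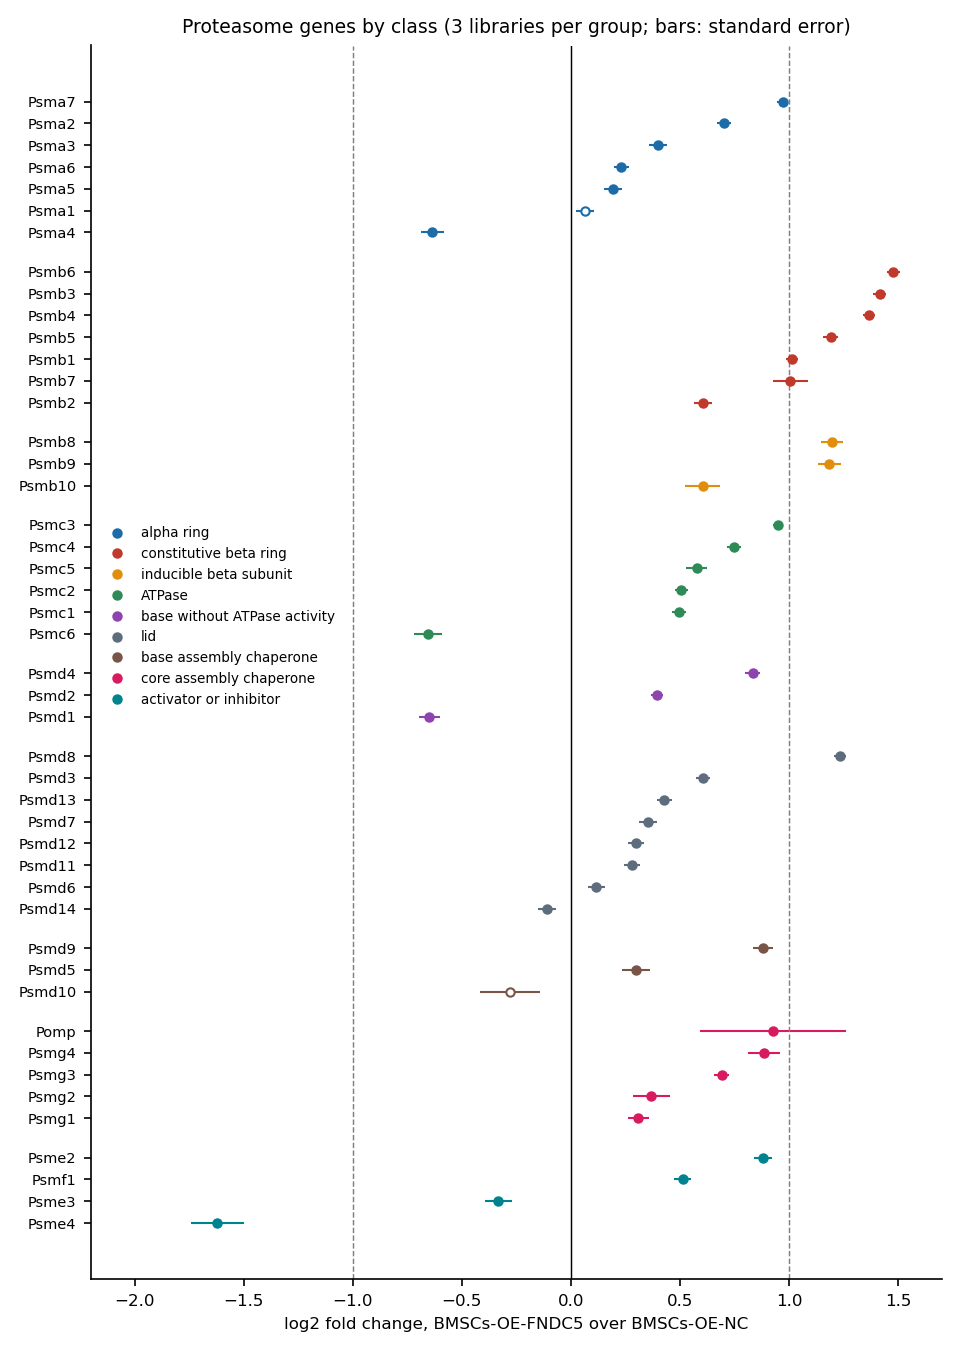
Log2 fold change of the 46 proteasome genes tested with TMM scaling, positive where BMSCs-OE-FNDC5 was higher, ordered by class, with bars for the standard error over 3 libraries per group, open circles for genes that did not pass the test and dashed lines at an absolute log2 fold change of 1. The constitutive beta ring lies between 0.60 and 1.48, while the alpha ring spans -0.64 to 0.97, and Psma1, Psma5, Psma6, Psmd5, Psmd6, Psmd7, Psmd11, Psmd12, Psmg1 and Psmg2 turn negative when counts are scaled by library size only.

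Because most of these genes moved together, their promoters were compared. RefSeq (rat assembly GRCr8) held a promoter, from 250 bases before to 50 bases after the start, for 45 of the 50 genes of the set. None was held for Psma7, Psmb11, Psmd6, Psmd12 and Psmd14. Each was searched on both strands for the antioxidant response element (TGACNNNGC), which binds NFE2L1 and NFE2L2, for the GC box (GGGCGG), for the CCAAT box (CCAAT), for the core of an interferon response element (GAAANNGAA) and for an ETS site (CCGGAAG). The ETS site was added after the sequences had been seen. A GC box was present in 32 of the 45 promoters (71.1%), against 33.1% of all 33469 promoters. An ETS site was present in 17 (37.8%), against 8.75%, and a CCAAT box in 22 (48.9%), against 37.5%. The interferon core occurred in 10 (22.2%), against 9.71%, and the antioxidant response element in 8 (17.8%), against 12.1%. The shares over all promoters include genes too low to be tested here, whereas most proteasome genes were tested. No share over the tested genes alone was taken, so an excess is not shown to be particular to proteasome genes. Genes that fell had only 5 promoters, too few to tell whether matches differ between genes that rose and genes that fell. The antioxidant response element was matched in 6 of the 36 promoters of genes that rose, Psmc3ip included, and in 2 of the 5 promoters of genes that fell, and the GC box in 23 of 36 and 5 of 5. A match describes letters in this window and is not a measured binding site. The promoters of 2 beta subunits that rose most (Psmb6, chr10:55737638-55737937, plus strand, and Psmb3, chr10:83193537-83193836, plus strand), of 2 genes that fell (Psme4, chr14:108706393-108706692, plus strand, and Psmc6, chr15:21022064-21022363, plus strand) and of the inducible subunits Psmb8 (chr20:4656982-4657281, minus strand) and Psmb9 (chr20:4668750-4669049, plus strand) are shown 5′ to 3′ in GRCr8 coordinates, with motif matches in capitals. They are examples picked with the direction of change known, and they test nothing.
Psmb6: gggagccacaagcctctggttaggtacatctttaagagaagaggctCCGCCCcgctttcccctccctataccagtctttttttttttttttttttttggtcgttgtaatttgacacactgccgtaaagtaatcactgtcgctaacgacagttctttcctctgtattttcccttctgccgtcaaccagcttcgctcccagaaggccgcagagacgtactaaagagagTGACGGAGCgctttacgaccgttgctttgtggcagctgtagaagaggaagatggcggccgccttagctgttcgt
Psmb3: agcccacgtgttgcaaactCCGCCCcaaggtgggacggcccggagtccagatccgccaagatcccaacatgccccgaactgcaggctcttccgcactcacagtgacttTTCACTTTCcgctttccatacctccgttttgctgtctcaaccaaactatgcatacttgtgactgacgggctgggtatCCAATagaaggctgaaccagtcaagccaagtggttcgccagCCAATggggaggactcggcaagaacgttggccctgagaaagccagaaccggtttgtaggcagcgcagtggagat
Psme4: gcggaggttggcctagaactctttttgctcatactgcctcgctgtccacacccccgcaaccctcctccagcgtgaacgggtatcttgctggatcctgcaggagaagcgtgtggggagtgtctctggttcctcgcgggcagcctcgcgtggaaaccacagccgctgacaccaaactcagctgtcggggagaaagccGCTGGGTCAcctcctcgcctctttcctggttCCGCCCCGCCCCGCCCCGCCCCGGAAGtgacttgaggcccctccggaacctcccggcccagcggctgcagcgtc
Psmc6: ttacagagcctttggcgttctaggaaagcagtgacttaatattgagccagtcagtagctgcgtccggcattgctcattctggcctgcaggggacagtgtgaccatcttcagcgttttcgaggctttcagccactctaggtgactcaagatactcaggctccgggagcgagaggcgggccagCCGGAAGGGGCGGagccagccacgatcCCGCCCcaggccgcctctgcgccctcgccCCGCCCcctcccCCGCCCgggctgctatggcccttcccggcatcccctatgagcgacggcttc
Psmb8: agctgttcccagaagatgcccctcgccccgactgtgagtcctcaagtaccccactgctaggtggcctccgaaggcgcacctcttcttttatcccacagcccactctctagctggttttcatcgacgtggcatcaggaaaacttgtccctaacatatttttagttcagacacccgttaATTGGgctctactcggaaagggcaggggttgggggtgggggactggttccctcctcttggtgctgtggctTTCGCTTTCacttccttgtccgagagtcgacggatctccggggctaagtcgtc
Psmb9: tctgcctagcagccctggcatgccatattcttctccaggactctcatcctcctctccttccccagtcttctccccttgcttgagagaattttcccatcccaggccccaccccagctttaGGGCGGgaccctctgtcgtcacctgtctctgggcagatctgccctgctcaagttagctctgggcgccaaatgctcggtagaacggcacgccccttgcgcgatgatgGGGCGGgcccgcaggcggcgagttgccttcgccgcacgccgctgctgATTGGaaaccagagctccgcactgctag
Among these 6, the antioxidant response element was matched in Psmb6, which rose, and in Psme4, which fell. Psme4 and Psmc6 each held 4 GC boxes, whereas Psmb8 held none. The interferon core was matched in Psmb3 and Psmb8 and not in Psmb9.

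The alpha ring forms the outer wall of the core and the gate through which substrates enter. Of its 7 tested genes 5 rose, Psma4 fell and Psma1 did not pass the test. Psma7 rose most, from 270, 262 and 270 CPM in BMSCs-OE-NC to 529, 520 and 523 CPM in BMSCs-OE-FNDC5 (log2 fold change 0.97, standard error 0.03, adjusted p = 6.22e-11 from edgeR). Each library of BMSCs-OE-FNDC5 was thus well above each of BMSCs-OE-NC. Psma4 went the other way, from 98.2, 85.7 and 93.6 CPM to 61.7, 58.8 and 58.2 CPM (log2 fold change -0.64, standard error 0.05, adjusted p = 8.23e-07 from edgeR), again without overlap. Psma1 had 124, 117 and 125 CPM in BMSCs-OE-NC and 122, 128 and 132 CPM in BMSCs-OE-FNDC5, and the groups overlapped (log2 fold change 0.07, standard error 0.04, adjusted p = 0.167 from edgeR). Psma2 rose by 0.70 and Psma3 by 0.40 on the log2 scale, and the call of Psma3 was lost with library size scaling (0.03, adjusted p = 0.527 from edgeR). Psma5 and Psma6 rose by 0.19 and 0.23, but both were lower in BMSCs-OE-FNDC5 with scaling by library size only (-0.18 and -0.14) or with the length trend removed (-0.33 and -0.26). With the length trend removed, 3 genes of the alpha ring were higher (Psma2, Psma3 and Psma7) and 4 were lower, with a median of -0.26. Psma4 stood at -0.26 in that fit, against -0.37 for Psma1, the lowest of the ring. Psma8, the testis form of an alpha subunit, had 0 to 2 counts in each library and was not tested.

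The beta ring carries the catalytic sites on Psmb6, Psmb7 and Psmb5, and its other subunits complete the ring. All 7 constitutive genes rose, and 6 of them at least doubled on the scaled counts. Psmb6, which cleaves after acidic residues, showed the largest rise of the 46 genes with TMM scaling. It had 161, 160 and 158 CPM in BMSCs-OE-NC and 447, 456 and 433 CPM in BMSCs-OE-FNDC5 (log2 fold change 1.48, standard error 0.03, adjusted p = 7.03e-12 from edgeR). The groups lay far apart and the libraries within each were close. Psmb5, which carries the chymotrypsin-like site and is the main target of proteasome inhibitors, had 193, 182 and 177 CPM against 418, 417 and 424 CPM (log2 fold change 1.19, standard error 0.03, adjusted p = 1.09e-10 from edgeR). Psmb7, which carries the trypsin-like site, had 125, 142 and 107 CPM against 243, 252 and 258 CPM (log2 fold change 1.01, standard error 0.08, adjusted p = 4.32e-07 from edgeR). Its control libraries were the most scattered of the ring. The locus of Psmb7 overlaps Nek6 on the opposite strand over 21.6% of its length, Nek6 had 1682 to 4511 counts, and the strand setting of the counting was not given in the sources used here.

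Among the beta subunits without a catalytic site, Psmb3 had 245, 233 and 232 CPM in BMSCs-OE-NC and 632, 639 and 619 CPM in BMSCs-OE-FNDC5 (log2 fold change 1.41, standard error 0.03, adjusted p = 1.04e-11 from edgeR). Psmb4 had 375, 368 and 353 CPM against 929, 949 and 944 CPM (log2 fold change 1.36, standard error 0.03, adjusted p = 8.47e-12 from edgeR). Both rose about as much as Psmb6, with no overlap between groups. Psmb1 had 336, 328 and 330 CPM against 673, 648 and 685 CPM (log2 fold change 1.01, standard error 0.03, adjusted p = 7.73e-11 from edgeR). Psmb2, with 140, 135 and 129 CPM against 197, 213 and 202 CPM, rose least (log2 fold change 0.60, standard error 0.04, adjusted p = 1.17e-07 from edgeR). Psmb1 and Psmb7 stood just above a log2 fold change of 1 and Psmb2, with Psma7 at 0.97, below it. With the length trend removed, 6 of the 7 beta genes were still called up and the median was 0.76, and Psmb2 was not called (0.03, adjusted p = 0.451 from edgeR).

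The inducible catalytic subunits, which form the immunoproteasome, rose beside their constitutive partners. Psmb8, which takes the place of Psmb5, had 28.2, 29.7 and 27.8 CPM in BMSCs-OE-NC and 65.6, 63.4 and 67.4 CPM in BMSCs-OE-FNDC5 (log2 fold change 1.20, standard error 0.05, adjusted p = 1.97e-09 from edgeR). Psmb9, which takes the place of Psmb6, had 22.7, 22.4 and 22.4 CPM against 52.9, 49.99 and 50.5 CPM (log2 fold change 1.18, standard error 0.05, adjusted p = 3.67e-09 from edgeR). In both genes every library of BMSCs-OE-FNDC5 was above every library of BMSCs-OE-NC. Psmb10, which takes the place of Psmb7, had 33.8, 35.3 and 33.7 CPM against 58.2, 52.9 and 45.2 CPM (log2 fold change 0.60, standard error 0.08, adjusted p = 3.61e-05 from edgeR). The libraries of BMSCs-OE-FNDC5 were spread more widely for Psmb10 than for Psmb8 and Psmb9, and its call was lost with the length trend removed (log2 fold change 0.08, adjusted p = 0.395 from edgeR), whereas Psmb8 and Psmb9 kept theirs at 1.11 and 0.88. Psmb11, the thymus form, had 0 counts in each library, which allows at most 0.147 to 0.205 CPM if 3 counts is taken as the upper limit of a count of 0.

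Ratios within a library do not depend on the scaling between libraries, but they do depend on the trend with gene length where partners differ in length. Per kilobase, Psmb8 stood at 6.18%, 6.90% and 6.65% of Psmb5 in BMSCs-OE-NC and at 6.63%, 6.43% and 6.73% in BMSCs-OE-FNDC5, so the groups overlapped. The log2 ratio differed by 0.00496 (exact permutation test over 6 libraries, two-sided, p = 1), and the sign of so small a difference turned in 4 of the alternative settings. With the length trend removed the ratio was higher in each library of BMSCs-OE-FNDC5, by 0.50 on the log2 scale (exact permutation p = 0.1). Psmb9 stood at 6.64% ± 0.0431 of Psmb6 in BMSCs-OE-NC and at 5.42% ± 0.217 in BMSCs-OE-FNDC5 (SD, n = 3 each), a log2 difference of -0.29 (exact permutation p = 0.1). The direction of this difference turned with the length trend removed (0.05, exact permutation p = 0.4), and Psmb9 has 1520 bases against 717 for Psmb6. Psmb10 stood at 47.3% ± 5.84 of Psmb7 and at 35.5% ± 5.45 (SD, n = 3 each), a log2 difference of -0.42 (exact permutation p = 0.1), which was -0.70 with the length trend removed (exact permutation p = 0.1). Per kilobase, in the latter pairs each library of BMSCs-OE-FNDC5 was lower than each of BMSCs-OE-NC, and 0.1 is the smallest p that 3 against 3 libraries allow. Adjusted over the 3 ratios by Benjamini-Hochberg, the exact permutation p-values were 1, 0.15 and 0.15, and with the length trend removed they were 0.15, 0.4 and 0.15.

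**Figure D2:**
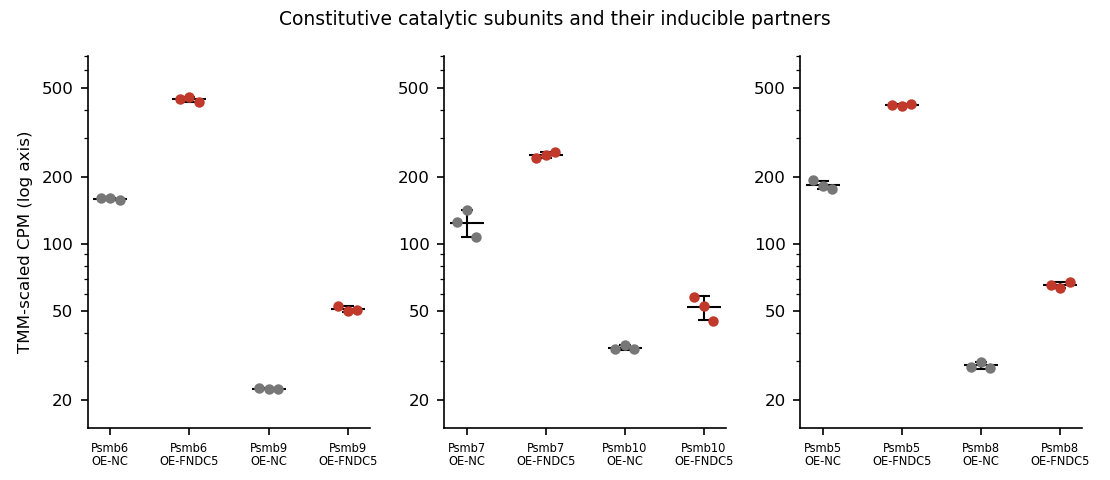
TMM-scaled CPM on a log axis of each constitutive catalytic subunit and its inducible partner, with a point for each of the 3 libraries of BMSCs-OE-NC (grey) and of BMSCs-OE-FNDC5 (red), a horizontal line for the mean and bars for the SD. Psmb9 and Psmb8 stay between 22.4 and 67.4 CPM, far below Psmb6 and Psmb5, and all 6 genes are higher in BMSCs-OE-FNDC5.

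Psmb8 and Psmb9 lie in the major histocompatibility complex beside Tap1, which moves peptides into the endoplasmic reticulum. In the positions of the count table, whose genome build is not named, Psmb9 (chromosome 20, 3973420 to 3978845, minus strand) and Tap1 (3979035 to 3989669, plus strand) point away from each other with 189 bases between them, and Psmb8 starts 943 bases after Tap1. Tap1 rose as well, from 53.7 ± 1.33 to 103 ± 2.89 CPM (SD, n = 3 each, log2 fold change 0.94, adjusted p = 2.65e-09 from edgeR). Of 9 tested genes of the interferon response and antigen processing, 2 rose (Tap1 and Tapbp), 2 fell and 5 did not pass the test. Over all genes tested, 36.9% rose and 38.8% fell. B2m, the light chain of class I molecules, fell by 0.44 on the log2 scale (adjusted p = 7.73e-08 from edgeR). Irf1, an interferon-induced activator of these genes, had 38.1 ± 0.992 CPM against 36.2 ± 3.51 CPM (SD, n = 3 each, log2 fold change -0.07, adjusted p = 0.359 from edgeR). Tap2 had a log2 fold change of 0.25 (adjusted p = 0.21 from edgeR). Nlrc5 was at 0 in all libraries and Ifit3 was too low to test.

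Leukocytes carry much immunoproteasome, so their markers were counted beside it. Of 13 leukocyte and erythroid markers in the table, Cd3g, Cd79b, Hbb, Mpo and Ptprc were at 0 in all 6 libraries and 3 passed the filter. Cd14 went from 98.5 ± 2.54 to 197 ± 4.85 CPM, Cd68 from 2.39 ± 0.350 to 4.02 ± 0.838 CPM and Cd74 from 5.03 ± 0.235 to 0.535 ± 0.198 CPM (SD, n = 3 each). The summed level of the list was 103 to 109 CPM in BMSCs-OE-NC, compared with 199 to 207 CPM in BMSCs-OE-FNDC5, most of it Cd14, which stromal cells can also express. The part of other cells in the rise of Psmb8, Psmb9 and Psmb10 was not tested.

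Subunits that occupy equal numbers of places in the particle had unequal FPKM. Levels were compared between genes as FPKM, the deposited count scaled to gene length and library size, without a test. They therefore depend on the length listed for each gene. In BMSCs-OE-NC, Psma4 had 1719 to 1999 counts with a listed length of 3909 bases. Psma5 had 1807 to 1987 counts there with 1009 bases, and stood at 93.4 FPKM. In BMSCs-OE-NC the 14 constitutive core genes ran from Psma4, at 23.3 FPKM, to Psmb4, at 428 FPKM, and in BMSCs-OE-FNDC5 the same genes marked the ends at 15.2 and 1122 FPKM. The SD of log2 FPKM across these 14 genes was 1.18 to 1.21 in the libraries of BMSCs-OE-NC, compared with 1.71 to 1.72 in those of BMSCs-OE-FNDC5. The spread was thus wider in each library of BMSCs-OE-FNDC5, with the length trend left in. Across the 17 genes of the 19S particle it was 0.93 to 0.95 against 1.37 to 1.39, with Psmc6 lowest and Psmc3 highest in both groups.

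The mean level of the alpha ring was 131 ± 2.35 FPKM in BMSCs-OE-NC and 201 ± 3.59 FPKM in BMSCs-OE-FNDC5, and that of the constitutive beta ring was 238 ± 7.08 and 571 ± 3.36 FPKM (SD, n = 3 each). The ratio of beta to alpha was 1.76 to 1.85 in BMSCs-OE-NC, compared with 2.80 to 2.92 in BMSCs-OE-FNDC5. The ratio of the core to the 19S particle was 1.84 to 1.85 and 2.44 to 2.48. Neither ratio overlapped between the groups, but both keep the trend with gene length. The median length was 873 bases for the constitutive beta ring and 1065 for the alpha ring. It was 1574.5 for the ATPases, 2946 for the other base subunits and 1576 for the lid. How far the ratio of the core to the 19S particle depends on length was not tested. The rank order of the 14 core genes shifted little, and Psmb3 passed from rank 4 to rank 2 while Psma7 passed from rank 3 to rank 5. The mean of the inducible subunits was 20.7 ± 0.469 FPKM in BMSCs-OE-NC and 39.2 ± 2.26 FPKM in BMSCs-OE-FNDC5 (SD, n = 3 each).

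**Figure D3:**
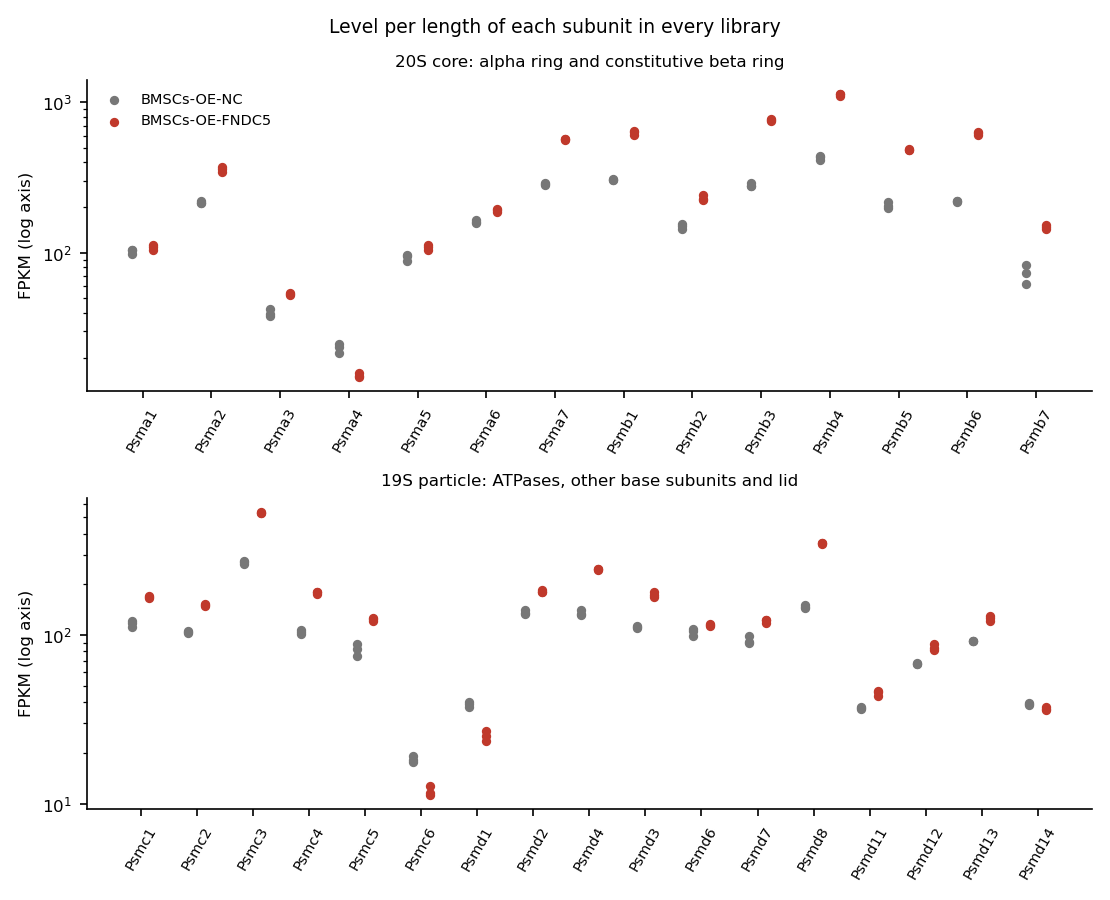
FPKM on a log axis of each subunit of the 20S core (top) and of the 19S particle (bottom), with a point for each library of BMSCs-OE-NC (grey) and BMSCs-OE-FNDC5 (red). The beta ring genes are all higher in BMSCs-OE-FNDC5, whereas Psma4, Psmc6, Psmd1 and Psmd14 lie lower, and the subunits of a particle spread widely.

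The base ATPases unfold substrates and drive them into the core. Of the 6 ATPase genes, 5 rose and Psmc6 fell, and the count was the same with the length trend removed. Psmc3 rose most, from 456, 449 and 440 CPM in BMSCs-OE-NC to 870, 868 and 857 CPM in BMSCs-OE-FNDC5 (log2 fold change 0.95, standard error 0.02, adjusted p = 4.28e-11 from edgeR). Psmc6 had 46.6, 42.6 and 43.8 CPM against 26.7, 27.5 and 30.4 CPM (log2 fold change -0.65, standard error 0.07, adjusted p = 3.46e-06 from edgeR). Neither gene had overlapping groups, and Psmc6 fell by a similar amount with the length trend removed (-0.63). The other 4 ATPases rose by 0.49 (Psmc1), 0.51 (Psmc2), 0.58 (Psmc5) and 0.75 (Psmc4) on the log2 scale.

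The other base subunits receive ubiquitin chains and shuttle proteins. Psmd4, a ubiquitin receptor, had 202, 190 and 188 CPM in BMSCs-OE-NC and 342, 345 and 345 CPM in BMSCs-OE-FNDC5 (log2 fold change 0.83, standard error 0.03, adjusted p = 1.32e-09 from edgeR). Psmd1, the scaffold on which the receptor Adrm1 docks, had 125, 117 and 122 CPM against 82.7, 77.7 and 72.4 CPM (log2 fold change -0.65, standard error 0.05, adjusted p = 3.38e-07 from edgeR). The former rose and the latter fell without overlap between groups. With the length trend removed the log2 fold change was 0.49 for Psmd4 and -0.42 for Psmd1. Psmd2, to which shuttle factors bind, rose by 0.39 on the log2 scale, but was not called with library size scaling (0.02, adjusted p = 0.438 from edgeR).

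The lid holds the deubiquitinase Psmd14, its partner Psmd7 and a horseshoe of scaffold subunits. Of its 8 genes, 7 rose and Psmd14 fell with TMM scaling. Psmd8, the last subunit to join the lid, had 234, 223 and 227 CPM in BMSCs-OE-NC and 532, 537 and 537 CPM in BMSCs-OE-FNDC5 (log2 fold change 1.23, standard error 0.03, adjusted p = 1.58e-11 from edgeR). It was the only gene outside the beta subunits past the fold threshold upwards with TMM scaling, and with the length trend removed its log2 fold change was 0.92. Psmd14 had 63.4, 61.8 and 63.2 CPM against 57.7, 57.2 and 59.5 CPM (log2 fold change -0.11, standard error 0.04, adjusted p = 0.0276 from edgeR). The groups did not overlap, but the difference was small and the call was lost with DESeq2 (adjusted p = 0.245), with its scaling in edgeR (adjusted p = 0.091) and in edgeR without replicate 1 or 3 of BMSCs-OE-NC (adjusted p = 0.0547 and 0.0531) or without replicate 1 or 2 of BMSCs-OE-FNDC5 (0.0718 and 0.0907). With the length trend removed Psmd14 was called down by more (-0.40, adjusted p = 4.63e-06 from edgeR). Psmd6, with a log2 fold change of 0.12, had an adjusted p of 0.0187 in edgeR and of 0.105 without replicate 2 of BMSCs-OE-NC. Psmd3 rose by 0.60, Psmd13 by 0.43, Psmd7 by 0.35, Psmd12 by 0.30 and Psmd11 by 0.28 on the log2 scale, but Psmd6, Psmd7, Psmd11 and Psmd12 were lower with scaling by library size only, as was Psmd6 with the length trend removed. The calls of Psmd13 with library size scaling (0.06, adjusted p = 0.142 from edgeR) and of Psmd7 with the length trend removed (0.06, adjusted p = 0.186) were lost.

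Chaperones that build the base hold ATPases apart until they join. Psmd9 had 45.6, 45.9 and 47.4 CPM in BMSCs-OE-NC and 89.3, 83.7 and 82.6 CPM in BMSCs-OE-FNDC5 (log2 fold change 0.88, standard error 0.05, adjusted p = 1.1e-08 from edgeR). Psmd5 rose by 0.30 (adjusted p = 0.00122 from edgeR), but was lower with library size scaling (-0.07). Psmd10, also known as gankyrin, had 6.73, 6.13 and 6.87 CPM against 5.49, 5.39 and 5.37 CPM, and its difference of -0.28 did not pass the test (standard error 0.14, adjusted p = 0.0823 from edgeR). The libraries of Psmd10 did not overlap, and with the length trend removed it was called down (-0.998).

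Chaperones of the core guide the alpha ring (Psmg1 to Psmg4) and then the beta ring (Pomp). All 5 rose with TMM scaling, although with the length trend removed none was called up and Psmg1 was called down (-0.21), and Psmg1 and Psmg2 also turned negative with library size scaling. Psmg4 had 23.4, 26.4 and 22.8 CPM in BMSCs-OE-NC and 43.1, 43.1 and 48.0 CPM in BMSCs-OE-FNDC5 (log2 fold change 0.89, standard error 0.07, adjusted p = 6.88e-07 from edgeR). Psmg3, which pairs with it, rose by 0.69, and Psmg2 rose by 0.37. Psmg1, the partner of Psmg2, rose least, from 41.5, 41.6 and 39.5 CPM to 49.7, 49.4 and 52.6 CPM (log2 fold change 0.31, standard error 0.05, adjusted p = 0.000155 from edgeR). Pomp (chromosome 12, 8746855 to 8759599, minus strand) had 20, 27 and 20 counts against 19, 42 and 34 counts, which is 0.983, 1.35 and 1.01 CPM against 1.26, 2.86 and 2.25 CPM. The groups overlapped, and the rise of 0.93 (standard error 0.33, adjusted p = 0.0259 from edgeR) was lost without replicate 1 or 3 of BMSCs-OE-NC (adjusted p = 0.077 and 0.0778) or replicate 2 or 3 of BMSCs-OE-FNDC5 (0.123 and 0.0638), with library size scaling (0.148) and with the length trend removed (0.478).

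A second locus on the same chromosome, LOC100911238, which RefSeq names proteasome maturation protein-like, took far more reads than Pomp itself. It had 1302, 1200 and 1046 counts in BMSCs-OE-NC and 636, 617 and 765 counts in BMSCs-OE-FNDC5. On the scaled counts it fell by 0.39 on the log2 scale (standard error 0.08, adjusted p = 0.00148 from edgeR), opposite to Pomp. How reads that fit both loci were divided is not given in the sources used here, and the direction of Pomp is therefore uncertain. Copies of Psmb6 and Psma3 took few reads, with 18 to 70 counts for LOC100360846 and 13 to 33 counts for LOC100361067.

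The activators cap the core in place of the 19S particle, and they moved in both directions. Psme2, which with Psme1 forms the interferon-inducible cap, had 123, 123 and 120 CPM in BMSCs-OE-NC and 238, 220 and 216 CPM in BMSCs-OE-FNDC5 (log2 fold change 0.88, standard error 0.04, adjusted p = 3.87e-09 from edgeR). Psme3, which forms the nuclear cap, had 37.9, 36.2 and 35.0 CPM against 27.4, 29.2 and 29.9 CPM (log2 fold change -0.33, standard error 0.06, adjusted p = 0.000502 from edgeR). Psme4, whose large product caps the core in the nucleus and takes part in the degradation of acetylated histones, had 19.9, 18.5 and 23.3 CPM against 7.21, 6.62 and 6.23 CPM (log2 fold change -1.62, standard error 0.12, adjusted p = 2.95e-07 from edgeR). In none of the 3 genes did the groups overlap, and Psme4 was the only proteasome gene past the fold threshold downwards with TMM scaling. Psme4 is also the longest, at 7130 bases, and its log2 fold change was -0.85 with the length trend removed. Per length, Psme2 was 6.36 to 6.70 times Psme3 in BMSCs-OE-NC, compared with 14.1 to 17.0 times Psme3 in BMSCs-OE-FNDC5. Psme2 has 1338 bases and Psme3 has 2617. With the length trend removed their log2 fold changes were 0.51 and -0.23. Psmf1, an inhibitor of the core, had 55.2, 54.2 and 53.0 CPM against 78.0, 75.6 and 77.8 CPM (log2 fold change 0.51, standard error 0.04, adjusted p = 4.05e-07 from edgeR).

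Psme1, the partner of Psme2, had 3, 0 and 1 counts in BMSCs-OE-NC and 6, 4 and 2 counts in BMSCs-OE-FNDC5 and was not tested. Its locus (chromosome 15, 34256071 to 34258947, plus strand) lies within Emc9 on the minus strand over 89.5% of its length. Emc9 had 157 to 316 counts and rose by 1.16 on the log2 scale (adjusted p = 5.2e-06 from edgeR). Reads from the Psme1 and Emc9 strands may not have been separated, so the level of Psme1 is uncertain. Psme3 lies almost whole within AC123346.1 on the same strand, which had 0 to 14 counts.

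Factors outside the symbol rule that bind the particle or control it were counted from fixed lists. Over all genes tested, 36.9% rose and 38.8% fell. Of 7 further subunits and bound factors, 3 were up, 3 were down and 1 did not pass the test. Adrm1, a ubiquitin receptor of the base, rose from 207 ± 2.94 to 365 ± 10.3 CPM (SD, n = 3 each, log2 fold change 0.82, adjusted p = 7.33e-10 from edgeR), and Sem1, a small lid subunit, rose by 1.00. Usp14, a deubiquitinase that binds the base reversibly, fell from 39.8 ± 2.05 to 25.1 ± 1.72 CPM (SD, n = 3 each, log2 fold change -0.67, adjusted p = 4.97e-06 from edgeR). Uchl5, the other bound deubiquitinase, had a log2 fold change of -0.42 that did not pass the test (adjusted p = 0.0892 from edgeR). Both subunits proper thus rose, while the reversibly bound Usp14, Ube3c and Ecpas fell and Txnl1 rose by 0.35, less than the 0.37 by which library size scaling lowers all genes.

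Among 11 genes that act on the transcription of proteasome genes, 4 were up, 6 were down and 1 did not pass the test. The shares of all genes tested were 36.9% up and 38.8% down. Nfe2l1, which activates proteasome genes when the proteasome is inhibited, fell from 251 ± 4.20 to 206 ± 3.00 CPM (SD, n = 3 each, log2 fold change -0.28, adjusted p = 3.83e-06 from edgeR). Nfe2l2, which does so under oxidative stress, fell from 128 ± 5.19 to 64.0 ± 3.49 CPM (SD, n = 3 each, log2 fold change -0.995, adjusted p = 6.91e-09 from edgeR). With the length trend removed the log2 fold change was -0.12 for Nfe2l1 and -0.99 for Nfe2l2. Both regulators are controlled mainly at the protein level, which was not measured here. Of 8 import and shuttle factors, 3 rose, 4 fell and Akirin2, which carries proteasomes into the nucleus, did not pass the test (log2 fold change -0.09, adjusted p = 0.077 from edgeR). Akirin2 was called down with the length trend removed (-0.41, adjusted p = 4.17e-06 from edgeR).

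The log2 fold change of the proteasome genes fell with gene length, as it did over all genes. The Spearman correlation across genes was -0.46 over the 46 proteasome genes and -0.44 over all genes tested, and since genes share the same 6 libraries it is given as a description. The median length was 1394 bases for the proteasome genes and 2262 bases for all genes tested. Of 12 proteasome genes under 1000 bases 11 rose, of 23 from 1000 to 2000 bases 21 rose and 1 fell, and of 11 from 2000 bases 6 rose and 5 fell. When each library's trend of counts with length was taken out, the correlation over the proteasome genes was -0.02, 27 rose and 12 fell, and the median log2 fold change was 0.20, against -0.03 over all genes tested. In that fit the constitutive beta ring (median 0.76) and the alpha ring (-0.26) were 1.02 apart, compared with 0.96 under TMM scaling alone. Whether the trend came from the cells or from the libraries was not tested.

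**Figure D4:**
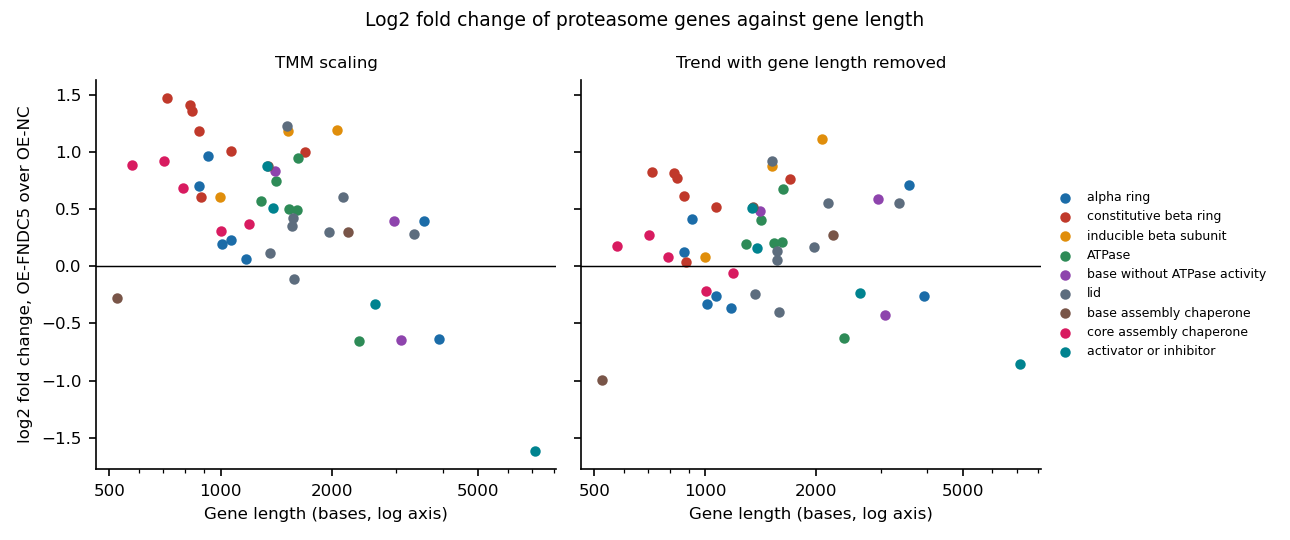
Log2 fold change of the 46 proteasome genes, positive where BMSCs-OE-FNDC5 was higher, against gene length in bases on a log axis, with TMM scaling (left) and with the trend of counts with length removed (right), coloured by class. The downward slope on the left (Spearman -0.46) is absent on the right (-0.02), where the 7 constitutive beta subunits stay above 0 and 4 of the 7 alpha subunits lie below it.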

How the data were processed

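RNA-seq libraries of BMSCs-OE-FNDC5 and BMSCs-OE-NC (3 each) were analysed from the deposited tables, in which the authors give whole-number gene counts and FPKM values. Tools named in the submitters' processing notes, with no role given, were HISAT2 2.1.0 and Bowtie2 2.2.3, TopHat2, CASAVA, DESeq2 and HTSeq 0.6.0. The same notes give mm10, a mouse assembly, and the extraction text mentions retinas, but the table holds rat identifiers and the source is bone marrow. Deposited FPKM equalled the count per kilobase divided by a constant per library, and positions are those of the table, whose build is not named.

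The gene counts went into edgeR 4.0.16 (R 4.3.3), were filtered with filterByExpr (minimum count 10, minimum total 15), scaled by TMM and compared with the quasi-likelihood test, with condition as the only term and Benjamini-Hochberg adjustment over the whole table. The procedure was tested on simulated counts. Ratios of inducible to constitutive subunits were compared by an exact permutation test, two-sided. Promoters came from RefSeq (GRCr8). The members, classes and lists were chosen with earlier results of these data known. Every gene of the set was named, with values per library for catalytic subunits, activators, Pomp, genes past both thresholds, genes that fell and the extremes of each class, and the genes of other lists were fixed by name. Some genes of those lists are counted but not reported here by name. LOC100911238, Emc9 and the other overlapping or copied loci were chosen after their values were seen, as were the list members named beside the fixed ones. The alternatives were other scalings, DESeq2 1.42.0, limma 3.58.1 (voom, and trend on log2(FPKM + 1) and log2(FPKM + 0.1)), other filters, a replicate block, each library left out, and an offset for the trend of counts with gene length (lowess, span 0.3), which was applied to the ratios only after the data had been seen. The limit that a count of 0 allows was taken as 3 counts, which covers counting error only. Figures were drawn with matplotlib 3.10.9.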

Additional observations from a re-analysis of the deposited data

How the results depend on the processing

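With TMM scaling 38 proteasome genes rose and 6 fell, with 9 and 1 past the fold threshold as well. RLE scaling, upper-quartile scaling, DESeq2, limma-voom, log2(FPKM + 0.1), no filter and a filter of 10 counts in every library gave 36 to 38 up and 5 to 7 down, with 7 to 9 up and 1 down past the fold threshold. Upper-quartile scaling lowered the median of all genes by 0.10 on the log2 scale, and Psma5 and Psmd6 were not called there. Scaling by library size only gave 25 up and 12 down, with 2 and 4 past the fold threshold, and made Psma1 (-0.30), Psma5 (-0.18), Psma6 (-0.14), Psmd5 (-0.0721), Psmd6 (-0.25), Psmd7 (-0.0171), Psmd11 (-0.0906), Psmd12 (-0.0729), Psmg1 (-0.0619) and Psmg2 (-0.00151) lower in BMSCs-OE-FNDC5 on the log2 scale. The gene length offset gave 27 up and 12 down, with 1 and 0 past the fold threshold, and made Psma1 (-0.37), Psma5 (-0.33), Psma6 (-0.26), Psmd6 (-0.24), Psmg1 (-0.21) and Psmg2 (-0.0558) lower. Both of these alternatives change the values by their construction. On log2(FPKM + 1), 38 rose and 7 fell, with 9 up and 0 down past the fold threshold, and Psme4 was at -0.98 there. The deposited FPKM already carry a scaling between libraries close to that of TMM, so neither FPKM setting is a separate check of scaling. Psmd10 was called down with upper-quartile scaling (-0.38) and library size only (-0.65), on both FPKM scales (-0.23 and -0.25) and with the length offset (-0.998). Leaving out each library in turn gave 37 to 38 up, 5 to 6 down, 7 to 10 up and 1 down past the fold threshold. The log2 ratio of Psmb8 to Psmb5 differed between groups by 0.00496. It changed sign on FPKM + 0.1 (-0.00067) and FPKM + 1 (-0.0487), and ranged from -0.0389 to 0.0400 with a library left out, so that replicate 1 of BMSCs-OE-NC or replicate 3 of BMSCs-OE-FNDC5 decided its sign. The gene length offset, added for the ratios after the data had been seen, gave differences of 0.497 for Psmb8 to Psmb5, 0.0471 for Psmb9 to Psmb6, which was -0.29 per kilobase, and -0.70 for Psmb10 to Psmb7, so the first pair was near 0 only without it. Same-numbered libraries did not deviate together (correlations 0.0213, -0.0138 and -0.00626). These values show no large shared deviation, but cannot tell whether same-numbered libraries share a rat, culture or transduction. A replicate block gave 38 up and 6 down with 9 up and 1 down past the fold threshold. Low counts limit what can be said of Psma8, Psmb11, Psme1 and Pomp, which had at most 42 counts in any library.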

Other observations

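Psmc3ip, the recombination factor kept apart from the proteasome genes, had 10.7, 11.01 and 11.2 CPM in BMSCs-OE-NC and 13.0, 13.5 and 13.2 CPM in BMSCs-OE-FNDC5 (log2 fold change 0.27, adjusted p = 0.0297 from edgeR) and was lower with the length trend removed (-0.29). The other transcription factors and shuttles counted beside the proteasome included Maff, a small Maf partner of the NFE2 factors, which rose by 0.91 on the log2 scale, Keap1, the adaptor that targets NFE2L2 for degradation, which rose by 0.64, and Hsf1, the heat shock factor, which rose by 0.63. Bach1, a repressor at antioxidant response elements, had a log2 fold change of -1.35, Ddi2, the protease that activates NFE2L1, of -1.17 and Ngly1, which deglycosylates it, of -0.68 (adjusted p = 6.96e-07, 2.71e-09 and 0.000511 from edgeR). With the length trend removed these values were -1.02, -0.24 and -0.63. Zfand2a, an arsenite-inducible proteasome-binding protein, rose by 0.96, whereas Zfand5, a proteasome activator, had a log2 fold change of -0.92 (adjusted p = 5.37e-10 and 3.91e-09 from edgeR).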
